A study of Mus musculus with 8 samples.

Results

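The genes described here are a list of 32 genes of the Atf4 and amino acid response, measured by RNA-seq of whole bone marrow (BM) from mice with acute myeloid leukemia (AML). The list was taken by gene symbol, with no threshold on a measured value but with earlier results of these data known, and 30 of its 32 members are among the 13305 genes of the deposited count table. Chac1, which degrades glutathione, and Slc7a11, the cystine and glutamate exchanger, are not listed there and were not analysed here. All 8 mice were C57BL/6N and carried Mx1-Cre, a single functional Dnmt3a allele and the Flt3-ITD on both alleles (Mx1-Cre; Dnmt3a+/-; Flt3ITD/ITD). Gab2 was the only stated difference: 3 mice were Gab2+/+ (AML WT), 2 were Gab2+/- (AML HET) and 3 were Gab2-/- (AML KO). Mx1-Cre is driven by an interferon-inducible promoter and, per the study, had recombined Dnmt3a in AML mice without an inducer, the Flt3-ITD and the Gab2 knockout are present in every cell of the animal, and the Gab2 knockout allele has a neomycin cassette in place of several exons, so that reads can still be counted on the remaining ones. The age of the sequenced mice is not given in the sources used here, and no mouse without leukemia was included.

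ATF4 is a bZIP transcription factor whose mRNA is always present but is translated well only when the initiation factor eIF2 is phosphorylated, which happens on lack of amino acids, heme deficiency, viral RNA or unfolded protein. The kinase complex mTORC1, which lies downstream of growth factor receptors and adaptors such as Gab2, also raises ATF4 and its targets in growing cells. With partners of the C/EBP family, ATF4 binds composite elements near genes for amino acid synthesis, uptake and loading onto tRNA. RNA-seq measures the mRNA only, so neither the ATF4 protein nor the phosphorylation of eIF2 was measured here.

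Letter matches to such elements, and to related sequences, were searched in the 250 bases before each annotated start (RefSeq, GRCm38.p6), on both strands. Of the 32 members, 26 had an entry in the promoter table used, and Slc7a5, Slc1a5, Cars, Lars, Nars and Wars had none. The C/EBP-ATF response element TGATGCAA was found before 7 of these 26 members (26.9%), Aars, Chac1, Nupr1, Pycr1, Slc7a11, Tars and Vldlr, and before 0.92% of all 27025 genes with an entry. The variant TGATGAAA, known as the nutrient-sensing response element of Asns, was found before Asns and Gars and before 0.99% of all genes. Any TGATGNAA, which includes both of these, stood before 9 of 26 members (34.6%) against 3.91% of all genes, whereas the bare half-site TGATG stood before 11 members (42.3%) and 37.95% of all genes. The list consists of genes reported to answer to ATF4, so these shares describe the list and were not tested. The cyclic AMP response element TGACGTCA, a sequence bound by bZIP factors that does not contain TGATG, stood before Ppp1r15a alone among the members and before 1.77% of all genes.

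The members were taken by symbol from genes reported to answer to ATF4, and not by this search. The stretches around these elements are shown for several members that have counts. That of Ppp1r15a marks TGACGTCA, and the others mark a TGATGNAA element. Each is written 5′ to 3′ in the direction of the gene, and capitals mark the element. Where the element lies on the opposite strand it reads TTGCATCA or TTTCATCA.
Asns, chr6:7693214-7693243, minus strand: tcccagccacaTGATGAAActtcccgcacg
Gars, chr6:55037960-55037989, plus strand: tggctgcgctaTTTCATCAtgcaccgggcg
Tars, chr15:11399659-11399684, minus strand: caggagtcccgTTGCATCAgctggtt
Pycr1, chr11:120643833-120643862, minus strand: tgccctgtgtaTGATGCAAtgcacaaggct
Nupr1, chr7:126625562-126625591, minus strand: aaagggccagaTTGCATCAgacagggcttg
Vldlr, chr19:27216809-27216838, plus strand: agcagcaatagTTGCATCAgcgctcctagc
Ppp1r15a, chr7:45526269-45526291, minus strand: cgcctctccggTGACGTCAgcac

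The element began 23 bases before the start in Asns, 30 in Gars, 15 in Tars, 103 in Pycr1, 110 in Nupr1, 200 in Vldlr and 12 in Ppp1r15a. For Vldlr this is a later listed start, and the element lies past an earlier one. The bases after the listed start of Gars were not found in a GENCODE transcript of the gene. In GENCODE M21, the stretches of Gars, Pycr1 and Ppp1r15a lie between genes, and those of Asns, Nupr1, Tars and Vldlr overlap an exon of the same gene outside its coding sequence, from transcripts that start earlier. A match of letters is a description and not a site shown to be bound.

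The libraries held 28009258 to 39266815 counts, and values are given as CPM (each count scaled by its library's size) on library sizes normalized with the TMM method. Gab2, the targeted gene, ran from 61.6 to 93.9 CPM in AML WT, from 50.8 to 55.8 in AML HET and from 34.96 to 47.21 in AML KO mice. AML KO mice were lower than AML WT mice by a log2 fold change of −0.87 (standard error, SE, 0.18, adjusted p = 0.0420, edgeR). With the AML WT and AML KO mice alone, the adjusted p was 0.0809, and with 1 mouse left out it was under 0.05 only without AML WT mouse 3 (0.0302) or AML KO mouse 2 (0.0371). Across the members in the count table, the lowest count in a mouse was 31. No gene of that table had fewer than 106 counts summed over the mice. A floor on the listed members was thus set by the table, and the levels of Chac1 and Slc7a11 are not known from it.

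No member of the list passed the adjusted p threshold between Gab2 genotypes with edgeR. Between AML KO and AML WT mice, 0 of 30 members passed the adjusted p threshold of 0.05 (quasi-likelihood test of edgeR, Benjamini-Hochberg over all genes), while 278 of 13305 genes did (2.09%). DESeq2 called 1 member, Ppp1r15a, and 5.49% of all genes, and limma-voom called 0 members. At an unadjusted p under 0.05 stood 3 members, Ppp1r15a, Ddit3 and Iars, against 17.7% of all genes. In 3 members, Ppp1r15a, Iars and Slc3a2, the AML KO mice did not overlap the AML WT mice, which was the case for 22.1% of all genes. The median log2 fold change was 0.03 over the members and −0.02 over all genes, with 17 members above 0 and 13 below. Scaled by library totals alone, the median of the members was −0.04.

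**Figure D1:**
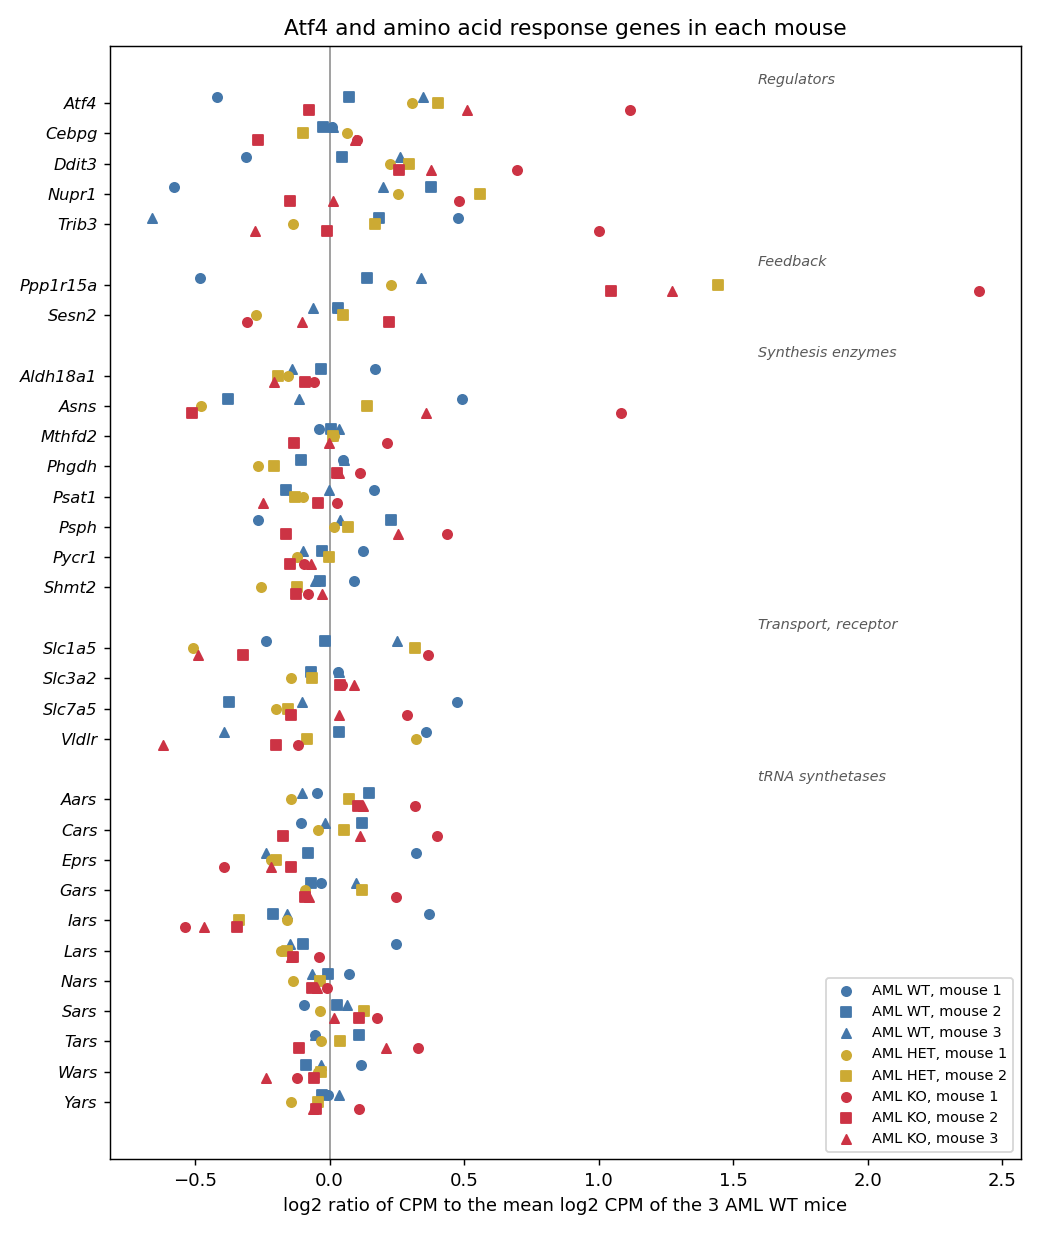
Each of the 30 members in each mouse, as the log2 ratio of its CPM to the mean log2 CPM of the 3 AML WT mice, with the genotype as colour and the mouse number as symbol. Most points lie within 0.5 of 0, AML KO mouse 1 stands to the right for Atf4, Ddit3, Trib3, Asns and Ppp1r15a, and all 3 AML KO mice are above the AML WT mice for Ppp1r15a.

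How closely the measurement bounded the differences varied between members. In 25 of 30 members, the 95% confidence interval of the fold change in AML KO over AML WT lay within 2-fold in either direction, as it did for 73.1% of all genes. In 19 members it lay within 1.5-fold, against 39.02% of all genes. The 5 members whose interval reached past 2-fold were Atf4, Asns, Trib3, Vldlr and Ppp1r15a. The interval of Ppp1r15a ran from 1.66 to 6.13-fold.

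**Figure D2:**
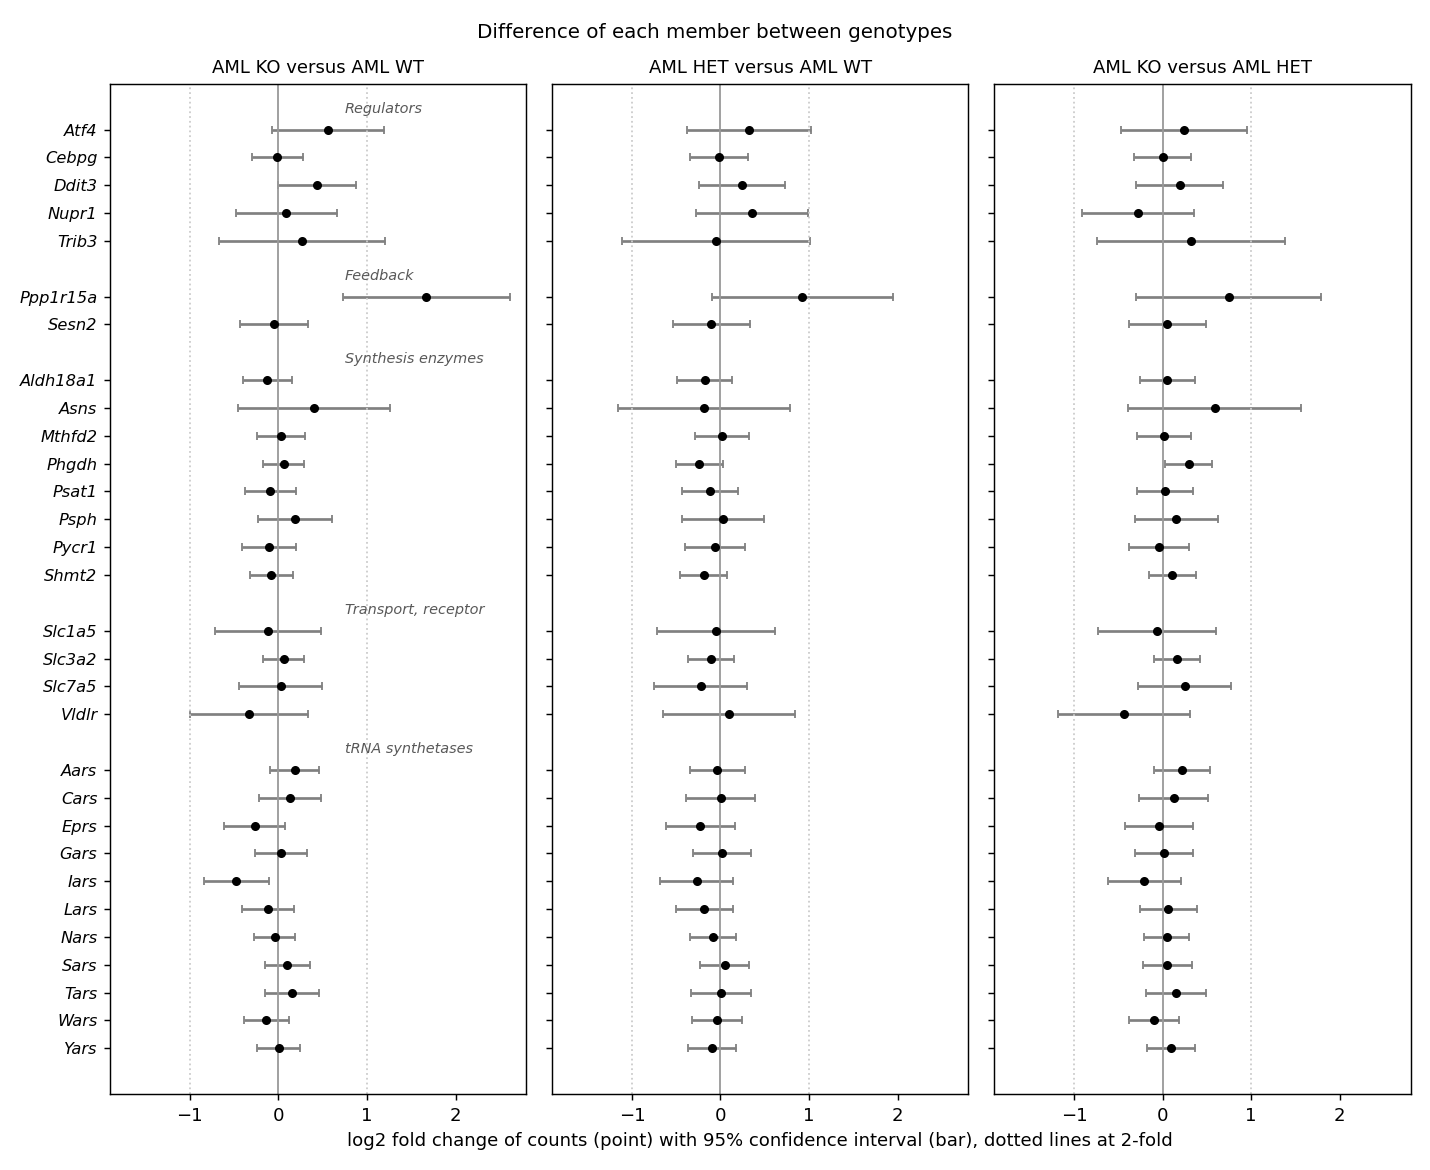
Log2 fold change of each member (point) with its 95% confidence interval (bar) in the 3 comparisons between genotypes, grouped by role, with dotted lines at 2-fold. In the comparison of AML KO with AML WT the intervals of Ppp1r15a, Ddit3 and Iars leave out 0 before adjustment, and the bounds of the other 27 enclose it.

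Per length of exon, the members spanned a wide range of levels. In CPM per kb (RPKM, over the union of exons), the mean over the 8 mice was highest for Atf4 itself, at 122.0 with a range of 71.9 to 207.9. Phgdh, the first enzyme of serine synthesis, came next at 77.9, followed by Gars at 53.1, Shmt2 at 52.2 and Slc1a5 at 46.4, and the ranges of Gars, Shmt2 and Slc1a5 over mice overlapped. At the low end stood Asns at 4.13, Pycr1 at 3.94, Trib3 at 0.797 and Vldlr at 0.204 RPKM. Asns, the textbook target of ATF4, was thus among the lower members, and in AML WT mice its RPKM was higher than that of 38.9% of all genes, compared with 96.5% for Atf4.

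**Figure D3:**
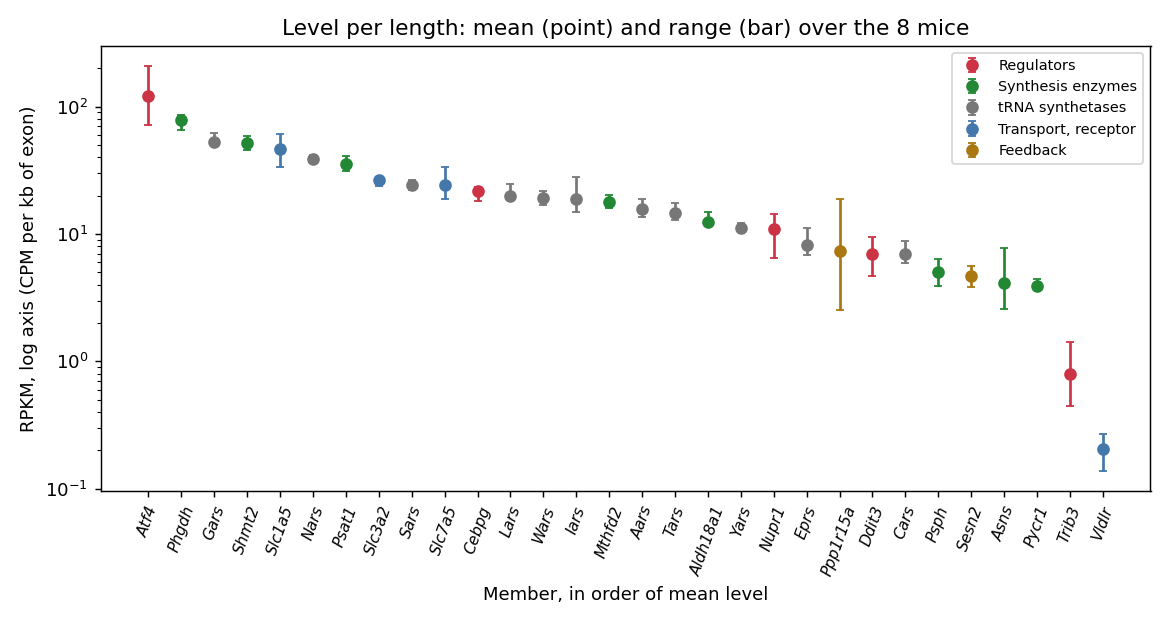
Level per length of the 30 members in RPKM on a log axis, ordered by the mean (point), with the range over the 8 mice (bar) and the role as colour. Atf4 is highest at 122.0 and Vldlr lowest at 0.204 RPKM, and Ppp1r15a, Asns, Trib3 and Atf4 have long bars.

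Among the regulators, Atf4 (ENSMUSG00000042406, chr15:80255184-80257541, plus strand) measured 169.5, 237.6 and 287.6 CPM in the AML WT mice, 279.6 and 299.3 in the AML HET mice and 490.2, 214.4 and 322.6 in the AML KO mice. The groups overlapped, since AML KO mouse 2 lay below 2 of the AML WT mice, and AML KO mouse 1 was far above every other mouse. Compared with AML WT, the log2 fold change in AML KO was 0.56 (SE 0.28, adjusted p = 0.318). It was 0.22 without AML KO mouse 1 and 0.37 without AML WT mouse 1.

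Ddit3, which encodes CHOP, a bZIP factor induced by ATF4 in prolonged stress, had 8.04, 10.3 and 11.9 CPM in AML WT, 11.6 and 12.2 in AML HET and 16.2, 11.9 and 12.9 in AML KO mice. AML KO mouse 1 was again the highest and AML WT mouse 1 the lowest of the 8. The log2 fold change was 0.44 (SE 0.20, unadjusted p = 0.0499, adjusted p = 0.283), and 0.29 without AML WT mouse 1. Ddit3 shares 68 exonic bases with Mars on the opposite strand. The strand setting of the counting is not given in the sources used here, so reads there cannot be assigned to either gene.

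Trib3, a pseudokinase that restrains ATF4 and CHOP, was barely expressed at 0.949 to 3.01 CPM over the 8 mice, with a log2 fold change of 0.27 that was −0.22 without AML KO mouse 1 and 0.51 without AML WT mouse 1. Nupr1, a small stress-induced chromatin protein, ranged from 16.4 to 35.9 CPM and was highest in AML HET mouse 2. Cebpg, the C/EBP partner of ATF4, was nearly level at 102.2 to 132.1 CPM, with a log2 fold change of −0.01. Of the 5 regulators, 0 passed the threshold between AML KO and AML WT, against 2.09% of all genes.

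Ppp1r15a was the member with the widest difference between genotypes. It encodes GADD34, which directs a phosphatase to eIF2 and so ends the response that ATF4 carries. The gene (ENSMUSG00000040435, chr7:45522916-45526268, minus strand) measured 7.38, 11.3 and 13.04 CPM in the AML WT mice, 12.1 and 28.04 in the AML HET mice and 54.9, 21.3 and 24.9 in the AML KO mice. All 3 AML KO mice were above all 3 AML WT mice, while 1 AML HET mouse lay among the AML WT mice and the other among the AML KO mice.

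The mean of Ppp1r15a was 10.6 ± 2.91 CPM (SD, n = 3) in AML WT and 33.7 ± 18.5 CPM (SD, n = 3) in AML KO mice, and the wide spread in AML KO came from mouse 1. The log2 fold change was 1.67 (SE 0.42), with an adjusted p of 0.0882 from edgeR, 0.113 from limma-voom and 0.00131 from DESeq2. The exact two-sided permutation test over the mice gave p = 0.1, the smallest that 3 against 3 mice allow. Without AML KO mouse 1 the log2 fold change was 1.13. AML HET mice differed from AML WT mice by 0.92 (SE 0.46, adjusted p = 0.990), a value that was 0.19 without AML HET mouse 2 and 1.41 without AML HET mouse 1.

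The 4 mice with the most Ppp1r15a, AML KO mice 1, 2 and 3 and AML HET mouse 2, were also the 4 with the highest sums of erythroid, of mature neutrophil and of megakaryocyte and platelet markers. The sum of 16 erythroid markers was 229.2 to 345.2 CPM in AML WT, 577.0 and 2168 in AML HET and 1511 to 5342 in AML KO mice, with AML KO mouse 1 highest, and 15 of the 16 markers were higher in AML KO than in AML WT at the threshold. The sum of 12 mature neutrophil markers ran from 1363 to 4794 CPM in AML WT, from 5505 to 6196 in AML HET and from 10630 to 17330 in AML KO mice. The sum of 12 megakaryocyte and platelet markers was 95.6 to 133.7 CPM in AML WT, 134.1 and 176.5 in AML HET and 348.3 to 462.7 in AML KO mice. No marker of these 3 lists was at 0 in any mouse. In whole BM, more cells of a type and more RNA per cell cannot be told apart, and the part of these cells in the level of Ppp1r15a or of any other member was not tested.

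**Figure D4:**
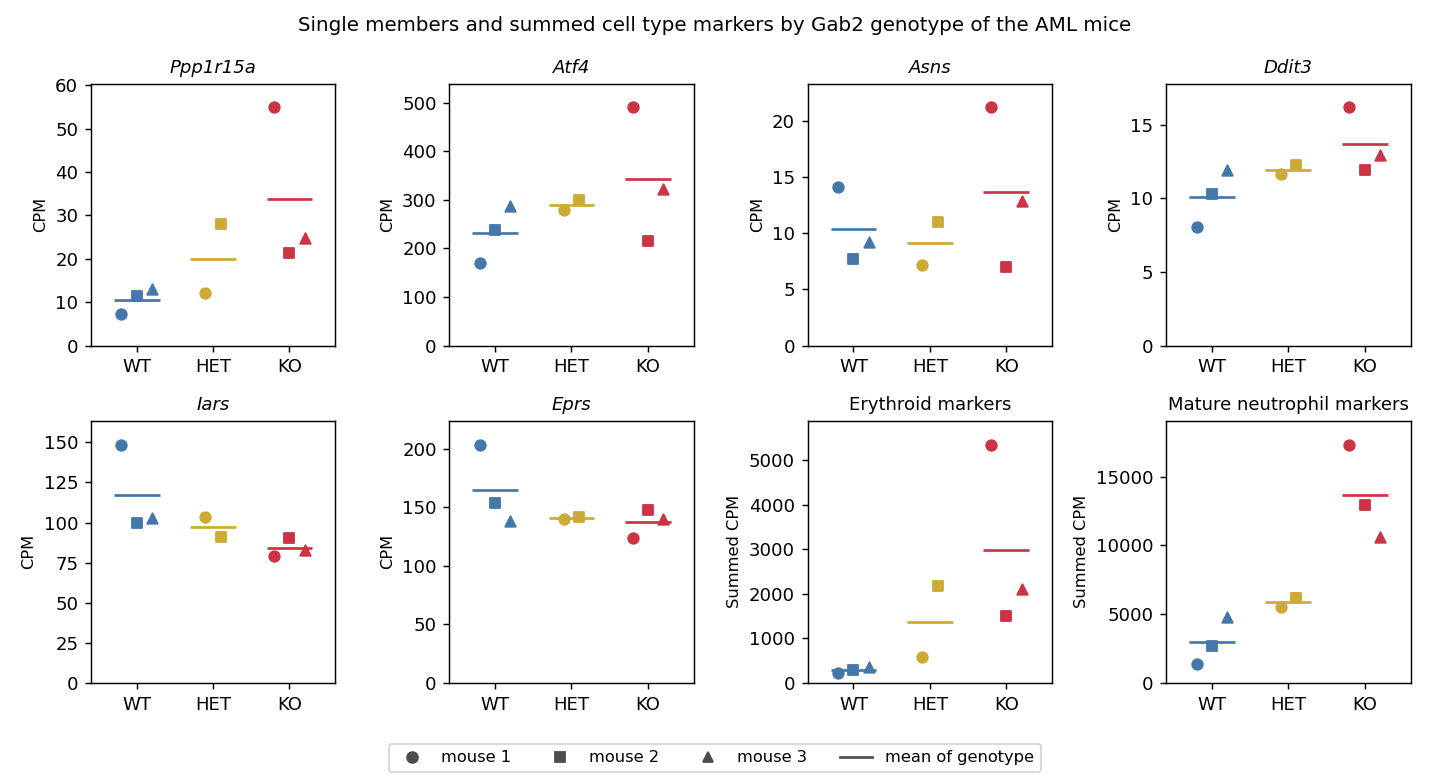
CPM of 6 members and summed CPM of the erythroid and mature neutrophil markers in each mouse (symbols for the mouse number, line for the mean of the genotype). Ppp1r15a and the erythroid sum are highest in AML KO mouse 1 and second highest in AML HET mouse 2, whereas Iars and Eprs are highest in AML WT mouse 1.

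The other feedback gene, Sesn2, whose product senses leucine and holds mTORC1 inactive when it is scarce, did not show this pattern. It measured 16.9, 17.0 and 15.9 CPM in AML WT and 13.4, 19.4 and 15.5 in AML KO mice, with a log2 fold change of −0.05 (SE 0.17).

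Of the 8 amino acid synthesis enzymes, 0 passed the threshold and 0 had an unadjusted p under 0.05 in AML KO against AML WT. Over all genes with edgeR, these shares were 2.09% and 17.7%. Asns, asparagine synthetase, was the most uneven of the 8, with a 95% interval of 0.73 to 2.40-fold. It measured 14.1, 7.71 and 9.25 CPM in AML WT, 7.19 and 11.03 in AML HET and 21.2, 7.02 and 12.8 in AML KO mice, so that the highest and the lowest of the 8 values both came from AML KO mice. Its log2 fold change of 0.40 (SE 0.38) was −0.06 without AML KO mouse 1 and 0.71 without AML KO mouse 2.

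Of the serine synthesis genes, Phgdh measured 204.9, 183.9 and 205.4 CPM in AML WT, 164.4 and 171.4 in AML HET and 214.0, 201.8 and 202.9 in AML KO mice. Both AML HET mice lay below the other 6, and the log2 fold change of AML KO against AML HET was 0.30 (SE 0.12, unadjusted p = 0.0320, adjusted p = 0.779). Psat1, the aminotransferase of the same path, ranged from 131.8 to 175.2 CPM over the 8 mice. Psph, the phosphatase of its last step, ranged from 16.8 to 27.4 CPM, and 452 of its exonic bases overlap Cct6a on the opposite strand.

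The mitochondrial one-carbon enzymes Shmt2 and Mthfd2, which turn serine into glycine and formate, had log2 fold changes of −0.08 and 0.03. Mthfd2 lay between 55.7 and 70.7 CPM and Shmt2 between 143.0 and 181.6 CPM in the 8 mice. Aldh18a1 and Pycr1, the first and last enzymes of proline synthesis from glutamate, had log2 fold changes of −0.12 and −0.11, and the 3 AML KO mice were within 46.7 to 51.9 CPM for Aldh18a1 and within 14.5 to 15.3 CPM for Pycr1.

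Of the transporters, Slc3a2 and Slc7a5 form the exchanger that brings leucine into cells, and Slc1a5 imports glutamine. Slc3a2 was 95.4, 89.0 and 95.7 CPM in AML WT and 96.3, 95.9 and 99.3 in AML KO mice, without overlap but by a log2 fold change of only 0.06 (SE 0.10, adjusted p = 0.771). Slc7a5 varied more within AML WT, at 124.8, 69.4 and 83.8 CPM, than between the genotype means, and its values were 109.7, 81.3 and 92.1 in AML KO mice. Slc1a5 measured 169.1, 197.0 and 236.9 CPM in AML WT, 140.2 and 248.4 in AML HET and 256.7, 159.4 and 141.7 in AML KO mice, so each genotype held both low and high values. Vldlr, a lipoprotein receptor gene that answers to ATF4, was the least expressed member, at 1.39 to 2.73 CPM, with a log2 fold change of −0.33 (SE 0.30) that was −0.14 without AML WT mouse 1.

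The 11 cytosolic tRNA synthetases, which load amino acids onto tRNA, varied little between mice in the median. The median over these genes of the standard deviation of log2 CPM between mice was 0.106 in AML WT and 0.0986 in AML KO, against 0.226 and 0.230 for all genes. The highest value of a synthetase was 0.32 in AML WT and 0.286 in AML KO, and all genes were not matched to the synthetases in level. Of the 11 synthetases, 0 passed the threshold between AML KO and AML WT, against 2.09% of all genes. Their log2 fold changes had a median of 0.00, with 6 above 0 and 5 below. The range ran from −0.47 in Iars to 0.18 in Aars.

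Iars, the isoleucyl synthetase (ENSMUSG00000037851, chr13:49682100-49734267, plus strand), measured 148.5, 99.4 and 103.1 CPM in AML WT, 103.2 and 91.2 in AML HET and 79.2, 90.6 and 83.2 in AML KO mice. The AML KO mice were all below the AML WT mice, and AML WT mouse 1 was the highest of the 8. The log2 fold change was −0.47 (SE 0.16, unadjusted p = 0.0173, adjusted p = 0.217), and −0.27 without AML WT mouse 1. The exact two-sided permutation p was 0.1, the smallest possible.

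Eprs, the glutamyl and prolyl synthetase, had the next lowest log2 fold change, −0.27 (SE 0.15), which was −0.099 without AML WT mouse 1, with 203.3 CPM in AML WT mouse 1 and 124.1 to 153.9 in the other 7 mice. Lars was also highest in AML WT mouse 1, at 132.8 CPM, and lay between 98.8 and 109.1 in the others. Aars had 135.9, 155.4 and 130.5 CPM in AML WT and 174.9, 150.7 and 152.9 in AML KO mice. Aars shares 1326 exonic bases with Exosc6 on the same strand, and Exosc6 is not listed in the count table. The other 7, Cars, Gars, Nars, Sars, Tars, Wars and Yars, had log2 fold changes between −0.14 and 0.15. Among them Nars was within 156.6 to 181.2 CPM and Yars within 61.3 to 73.2 CPM in all 8 mice.

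Taking the mice rather than the genes, 2 animals held most of the highest values. AML KO mouse 1 had the highest value of the 8 mice for 16 of 30 members and AML WT mouse 1 for 11, while for all genes these shares were 28.7% and 28.5%. The lowest values were spread otherwise, with 8 members in AML HET mouse 1, 7 in AML KO mouse 2, 6 in AML WT mouse 1 and 3 in AML KO mouse 1. For all genes the shares of lowest values in these mice were 7.38%, 14.4%, 25.2% and 25.8%. The members highest in AML KO mouse 1 included Atf4, Ddit3, Trib3, Asns, Ppp1r15a, Psph, Cars, Gars, Sars, Tars and Aars. Those highest in AML WT mouse 1 included Iars, Eprs, Lars, Slc7a5, Psat1, Shmt2 and Aldh18a1. The median log2 ratio of the members to their AML WT mean was 0.15 in AML KO mouse 1, −0.10 in AML KO mouse 2 and −0.02 in AML KO mouse 3, so the AML KO mice fell on both sides of 0. AML KO mouse 1 also had the highest erythroid sum and AML WT mouse 1 the lowest sum of neutrophil markers, and their part in these values was not tested.

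AML HET mice were compared with each of the other genotypes, with the same control or knockout mice as above. Against AML WT, 0 of 30 members passed the threshold (0.0225% of all genes did, edgeR) and 0 had an unadjusted p under 0.05 (2.47% of all genes). Of the members, 11 had a log2 fold change above 0 and 19 below, against 6449 and 6856 of all genes. DESeq2 and limma-voom called 0 members, with 2 at an unadjusted p under 0.05 in DESeq2. Against AML HET, the AML KO mice showed 0 of 30 members past the threshold (0.0% of all genes, edgeR) and 1, Phgdh, at an unadjusted p under 0.05 (5.86% of all genes), and DESeq2 and limma-voom again called 0. In this comparison 23 members were above 0 and 7 below, against 6669 and 6636 of all genes, and both comparisons share the AML HET mice. With 2 AML HET mice, the 95% interval stayed within 2-fold for 26 of 30 members in each of these comparisons. It did so for 77.24% of all genes in AML HET against AML WT and for 74.98% in AML KO against AML HET.

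Around the members, the genes that feed into or neighbour the same response were examined from lists made by function. Every gene of these lists that edgeR called between AML KO and AML WT was in the transcription factor list. DESeq2 also called genes of the ATF4 target, transporter and chaperone lists, given below. Of 8 bZIP relatives and partners, 2 rose in AML KO over AML WT with edgeR, Cebpe and Jdp2. DESeq2 called these and Atf3, the latter lower in AML KO at a log2 fold change of −0.89, and limma-voom called Cebpe alone. Cebpe, a C/EBP factor of granulocyte maturation, measured 9.25, 15.99 and 16.6 CPM in AML WT and 56.5, 43.6 and 41.6 in AML KO mice (log2 fold change 1.76, SE 0.24, adjusted p = 0.00898). It is high in maturing neutrophils, whose summed markers are given above, and their part in the level of Cebpe was not tested. Jdp2, a bZIP repressor that pairs with Jun and ATF proteins, had 15.3, 16.9 and 14.5 CPM in AML WT and 24.7, 27.5 and 21.8 in AML KO mice (0.66, SE 0.14, adjusted p = 0.0488). Its adjusted p was 0.0956 with the AML WT and AML KO mice alone and 0.0797 to 0.136 when any 1 mouse was left out.

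The kinases upstream of ATF4 were not called. Of 15 genes of the eIF2 kinases and the eIF2 cycle, 0 passed the threshold with edgeR and 3 had an unadjusted p under 0.05. Over all genes, these shares were 2.09% and 17.7%. The log2 fold change was below 0 in 11 of the 15 genes, against 6904 of 13305 genes, and the median of the list was −0.19. Eif2ak2, the kinase PKR that senses viral RNA, had 55.3, 41.1 and 60.4 CPM in AML WT and 35.5, 36.9 and 36.2 in AML KO mice (log2 fold change −0.53, SE 0.18, adjusted p = 0.217). Eif2s1, the eIF2 subunit that the kinases phosphorylate, had a log2 fold change of −0.27 (adjusted p = 0.272).

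Of 17 other reported ATF4 targets in the table, 1 passed with edgeR, which was Jdp2 again, 2 passed with DESeq2, Jdp2 and the transporter gene Slc6a9, and 0 with limma-voom, and the median was −0.10. Of 12 other cytosolic synthetase genes and their scaffold partners, 0 passed with edgeR and 1 had an unadjusted p under 0.05, which was Mars, the methionyl synthetase opposite Ddit3 (−0.40, SE 0.15, adjusted p = 0.240). Of 17 mitochondrial synthetases, 0 passed with edgeR and 3 had an unadjusted p under 0.05, with 12 below 0 and a median of −0.14, and Mars2 at −0.41 (adjusted p = 0.239) and Hars2 at −0.26 (adjusted p = 0.272) had the smallest p. With edgeR 0 of 11 folate and glycine enzymes and 0 of 11 proline and glutamate enzymes passed, with 2 and 1 at an unadjusted p under 0.05. Over all genes with edgeR, 2.09% passed the threshold, 17.7% had an unadjusted p under 0.05 and 6904 of 13305 were below 0. In the eIF2, synthetase, folate, proline and mTORC1 lists, DESeq2 and limma-voom also called 0 genes. Gldc, which cleaves glycine, stood at −1.07 (SE 0.43, adjusted p = 0.254).

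Of 15 other amino acid transporters, 0 passed the threshold with edgeR or limma-voom and 2 with DESeq2, Slc6a9 and Slc43a1, which were also the 2 at an unadjusted p under 0.05. In this list 12 genes were below 0, against 6904 of 13305 of all genes, and the median was −0.20. At the other end lay Slc6a9, the glycine transporter that red cell precursors use to make heme, with 0.664, 0.569 and 0.367 CPM in AML WT, 0.877 and 2.61 in AML HET and 3.34, 1.78 and 2.00 in AML KO mice. Its log2 fold change of 2.14 (SE 0.48) had an adjusted p of 0.0568 with edgeR, 0.00155 with DESeq2 and 0.0401 with the AML WT and AML KO mice alone. The AML HET and AML KO mice came in the order of their erythroid marker sums and the AML WT mice in the reverse order, and the part of red cell precursors in this was not tested. Slc43a1, a carrier of large neutral amino acids, stood at 1.12 (SE 0.29, adjusted p = 0.0982 with edgeR and 0.00619 with DESeq2). Of 30 genes of mTORC1 and its regulators, 0 passed with edgeR, 6 had an unadjusted p under 0.05 and 15 lay on each side of 0, with Castor1, an arginine sensor, at 0.90 (adjusted p = 0.170) and Lamtor4, a subunit of the lysosomal anchor, at 0.70 (adjusted p = 0.192). Of 18 endoplasmic reticulum chaperone genes, 0 passed with edgeR or limma-voom and 1 with DESeq2, 15 were below 0 and the median was −0.28. With edgeR 5 of them had an unadjusted p under 0.05. Over all genes 2.09% passed with edgeR and 17.7% had such a p, for comparison with this list and the transporter and mTORC1 lists. Hspa5, the chaperone BiP, had 788.4, 810.4 and 826.7 CPM in AML WT and 624.2, 680.2 and 630.1 in AML KO mice (−0.33, SE 0.11, adjusted p = 0.206 with edgeR and 0.0248 with DESeq2).

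**Figure D5:**
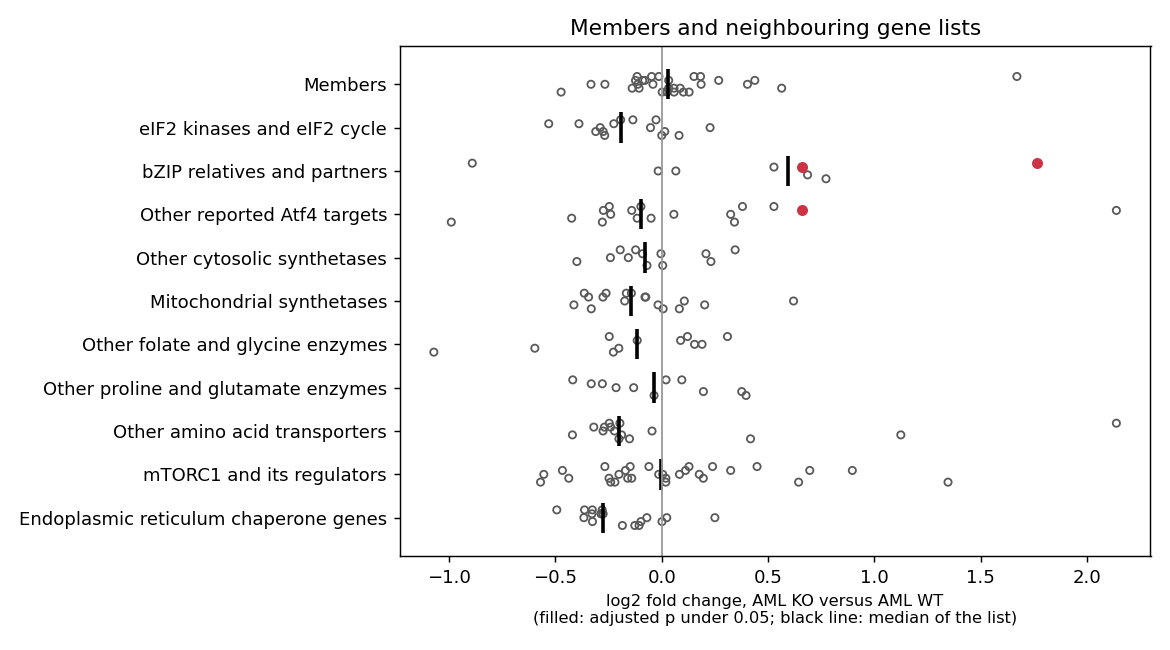
Difference of AML KO from AML WT, as log2 fold change, for each gene of the member list and 10 neighbouring lists, with filled points for adjusted p under 0.05 and a black line at each list's median. The members centre on 0.03 with Ppp1r15a apart at 1.67, and the filled points are Cebpe and Jdp2, the latter in 2 lists.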

How the data were processed

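The authors deposited raw counts per gene of whole BM RNA (Illumina libraries, 1 per mouse) without normalization. The submitters' processing notes name Trimmomatic 0.36, STAR 2.5.2b and mm10, while the counting step, annotation and strand setting are not given in the sources used here. The study refers to its Supplementary Methods for the data curation, and these were not used here and may state them. Of 13305 identifiers, 13266 matched GENCODE M21. The members and gene lists were chosen with earlier results of these data known, and groups came from the genotype labels.

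Counts were fitted in R 4.3.3 with edgeR 4.0.16 (TMM, filterByExpr, which removed 0 genes, and a robust quasi-likelihood test) over all 8 mice with genotype as the only term. p-values were adjusted over all genes by Benjamini-Hochberg. Standard errors and 95% intervals derive from the F statistic. The study calls AML KO and AML WT mice littermates, but no label ties a mouse to a litter, so litter was no term of the fit. The p-values weigh the difference between genotypes against the spread between these mice. At 28009258 counts or more per library, a count of 0 would allow up to 0.107 CPM (3 counts, counting error only).

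Named genes were every member, from each neighbouring list the genes past the threshold (3 at most) or the 2 with the smallest p, and Gab2. Mtor and Rps6kb1 were added to show both directions in the mTORC1 list. Some genes that this rule admits, and the stretch around the element of 1 member, are not reported here. Alternatives were DESeq2 1.42.0, limma-voom 3.58.1, other scalings and filters, the 10 most counted genes or the erythroid, megakaryocyte and neutrophil markers left out, a replicate block, AML WT and AML KO alone, and each mouse left out. Counts of the neighbouring lists by DESeq2 and limma-voom were added after seeing the data. Promoters of 28 starts came from RefSeq, and 24 of these continue in a GENCODE transcript of the same gene over 30 bases. Python 3.11.15 was used for tables.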

Additional observations from a re-analysis of the deposited data

How the results depend on the processing

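The count of 0 members called between AML KO and AML WT held under every alternative run except DESeq2, which called 1, and the counts in both comparisons with AML HET mice were 0 throughout. The median log2 fold change of the members between AML KO and AML WT was −0.037 with library totals alone and ran from −0.070 (without AML KO mouse 1) to 0.080 (without AML KO mouse 2) with 1 mouse left out. Same-numbered mice of different genotypes did not deviate together (correlations from −0.51 to 0.29, over 0.1 in 1 of 7 pairs). With the replicate number as a block, 0 members were called, the adjusted p of Ppp1r15a was 0.304 and those of Cebpe and Jdp2 were 0.0710 and 0.134.

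Gab2 kept its direction, with −0.86 under the block, −0.87 with the AML WT and AML KO mice alone and −0.99 to −0.68 with 1 mouse left out, but its adjusted p was above 0.05 in these fits (up to 0.165), except without AML WT mouse 3 or AML KO mouse 2. Some members changed sign, with Asns (0.40) and Trib3 (0.27) the farthest from 0 of these. With library totals alone the median of all genes moved from −0.017 to −0.076, and the log2 fold change was −0.0025 for Phgdh, −0.030 for Mthfd2, −0.042 for Slc7a5, −0.00098 for Slc3a2, −0.032 for Gars and −0.060 for Yars. It was −0.0017 for Yars without the 10 most counted genes and 0.013 for Cebpg with upper quartile scaling. With 1 mouse left out, the values ran from −0.057 to 0.71 for Asns, from −0.22 to 0.51 for Trib3, from −0.066 to 0.11 for Mthfd2, from −0.20 to 0.068 for Sesn2, from −0.14 to 0.29 for Slc7a5 and from −0.42 to 0.050 for Slc1a5. They ran from −0.025 to 0.26 for Cars, from −0.086 to 0.088 for Gars, from −0.19 to 0.0083 for Lars, from −0.055 to 0.033 for Yars, from −0.16 to 0.28 for Nupr1 and from −0.074 to 0.097 for Cebpg. The cause of the shifts with 1 mouse left out was not tested. The number of mice limits the precision, and counting error adds to it in Trib3 and Vldlr, with as few as 31 and 47 counts in a mouse.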

Other observations

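Lars2, the mitochondrial leucyl synthetase, stood apart from the other mitochondrial synthetases by its level and was singled out after its values were seen. It measured 1158, 396.3 and 472.7 CPM in AML WT, 627.9 and 1053 in AML HET and 1351, 841.1 and 924.1 in AML KO mice. The genotypes overlapped, and AML KO mice differed from AML WT mice by a log2 fold change of 0.62 (SE 0.39, adjusted p = 0.396, edgeR). Whether all reads counted on Lars2 came from its mRNA was not tested.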
